A study of Mus musculus with 6 samples.

Results

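The genes described here encode the inflammasomes of mouse macrophages and the executioner of pyroptosis. They are *Nlrp3*, *Nlrp1b*, *Mefv*, *Naip2*, *Naip5*, *Nlrc4*, *Pycard*, *Casp1*, *Casp4* and *Gsdmd*. They were chosen by symbol, and all 10 were found, each under 1 of the 55335 mouse Ensembl identifiers of the series. RNA-seq values of 6 libraries were compared, 3 per group, in FPKM (a level in fragments, corrected for transcript length and library total). In both groups the measured cells were bone marrow-derived macrophages (BMDMs) of WT genotype, grown from marrow cells for 7 days with 25 ng/ml of the growth factor M-CSF. They then shared a culture for 24 h with neutrophils taken by magnetic sorting from the spinal cord lesion 3 days after injury. The neutrophil donors were *Cd177* WT mice in the first group and *Cd177* KO mice in the second, CD177 being a surface glycoprotein of neutrophils. After the co-culture the Ly6G- cells were sorted and their RNA was sequenced. The methods describe male C57BL/6 mice aged 8 weeks and purchased *Cd177*-/- mice, and the number of animals behind each library is not given in the sources used here. The model is a culture in which marrow macrophages met neutrophils of the lesion, so the neutrophil genotype, and not that of the macrophages, separates the groups.

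An inflammasome is a cytosolic complex that forms when a sensor protein detects microbial products, toxins or cell damage. The sensor binds the adaptor ASC or recruits the protease caspase-1 directly. Caspase-1 then cleaves the precursors of IL-1β and IL-18 and the pore former gasdermin D, whose pores release the cytokines and can end in pyroptosis, a lytic form of cell death. In the non-canonical route caspase-11, the product of mouse *Casp4*, binds bacterial lipopolysaccharide and cleaves gasdermin D itself. Macrophages are a main cell type for both routes. In the cord after injury, inflammasomes have been studied as a source of IL-1β. The activity of these proteins depends on assembly and cleavage, which RNA levels do not measure.

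Column sums ranged from 302532 to 340717 FPKM, and the low values implied between 17700000 and 20200000 fragments per library. At that depth *Nlrp1b* in WT replicate 3 rested on about 91 fragments and *Naip2* in WT replicate 1 on about 3250. These are rough estimates, since the low values matched whole reads only in part and the gene lengths behind the FPKM are not known. Libraries correlated at 0.967 to 0.985 within WT, at 0.977 to 0.984 within KO and at 0.905 to 0.917 across the groups (Pearson's r over the tested genes). Macrophage markers summed to 7076-8560 FPKM in WT and 8213-9021 FPKM in KO, most of it *Lyz2*. *Csf1r* was between 232 and 293 FPKM in every library and was not called. Of the 10 macrophage markers 2 fell, *Cd14* (10.2-fold lower) and *Fcgr1* (3.59-fold lower), and 4 rose, *Mrc1* (7.89-fold), *C1qa* (1.69-fold), *Mertk* (1.65-fold) and *Adgre1* (1.23-fold), of which *Mertk* and *Adgre1* lost their calls with median-of-ratios scaling and without KO replicate 1 or KO replicate 2, and *Adgre1* also without WT replicate 1, WT replicate 2 or KO replicate 3. All of these but *Csf1r* and *Adgre1* were named after their values were seen. Neutrophil markers summed to 202-262 FPKM in WT and 558-572 FPKM in KO. *Ly6g* was listed at 0 in the WT libraries and at 0.660, 0.547 and 0.403 FPKM in the KO libraries, *S100a9* averaged 90.5 FPKM in WT and 234 FPKM in KO, and 10 of the 12 tested neutrophil markers out of 16 listed rose while *Mmp8* fell. *Cd177* itself averaged 0.458 FPKM in WT and 1.97 FPKM in KO, which goes against the labels of the neutrophils. The BMDMs carry the WT gene in both groups, although the paper reports low *Cd177* expression in macrophages and microglia. Whether this RNA came from the BMDMs or from remaining neutrophils was not tested. The value therefore neither checks the knockout nor settles the labels, and every direction given here is that of the libraries as labelled. Cells of other lineages left little RNA, with *Cd3e* at 0.0321 FPKM or below, although the 6 B cell markers summed to 0.711-1.35 FPKM in WT and 13.1-15.4 FPKM in KO. The T and NK cell markers summed to 0.328-0.706 FPKM in WT and 0.335-1.24 FPKM in KO, and the dendritic cell markers to 0.610-1.24 and 0.314-0.594 FPKM.

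The third library of each group stood apart from the others by transcript length. WT replicate 3 was the lowest WT library for the 7 members whose longest annotated transcript has 3096 to 5204 bases and the highest for *Casp1*, *Gsdmd* and *Casp4*, whose longest transcripts have 1497, 1792 and 1901 bases. KO replicate 3 was the lowest KO library for *Nlrp1b*, *Mefv*, *Naip2* and *Nlrc4* and the highest for *Pycard*, *Casp1*, *Casp4* and *Gsdmd*. Over 13361 genes, the deviation of a library from its group correlated with transcript length at a Spearman's rho of -0.49 in WT replicate 3 and -0.27 in KO replicate 3, and at 0.18 to 0.43 in the others. Genes are not independent replicates, so these values are descriptions. Each result that changed without replicate 3 is given below with and without it.

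**Figure D1:**
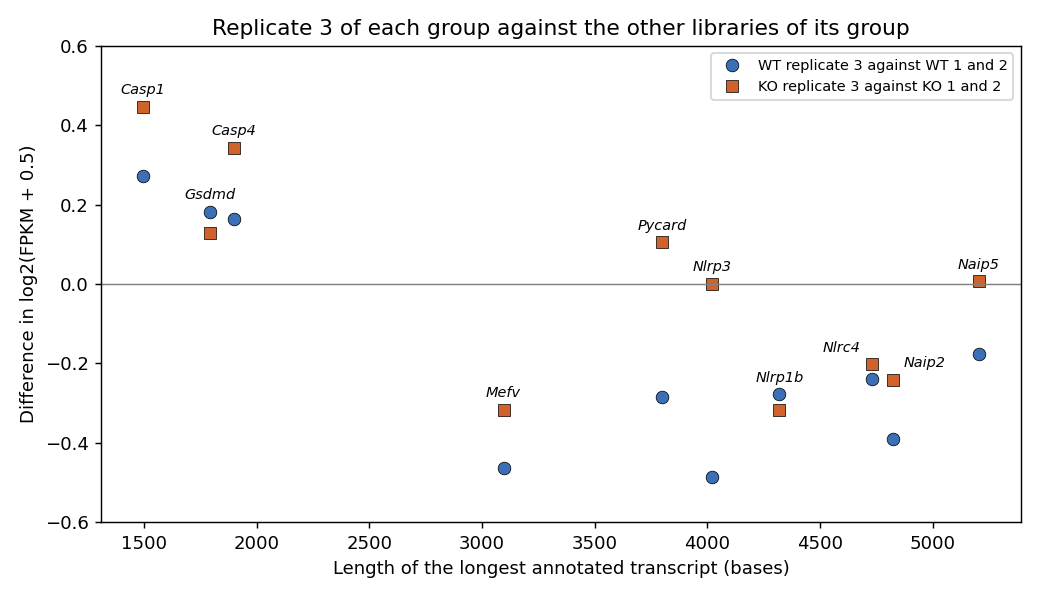
Length of the longest annotated transcript of each member in bases (x axis) against the difference in log2(FPKM + 0.5) between replicate 3 of a group and the mean of replicates 1 and 2 of that group (y axis), for WT (blue circles) and KO (orange squares). The 3 members with the shortest transcripts lie above 0 in both groups, and the 7 longer members lie below 0 in WT.

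All 10 genes passed the filter of a mean of 0.5 FPKM and none had a value of 0. With limma on log2(FPKM + 0.5), adjusted over the 13367 tested genes, 5 members were lower in the BMDMs cultured with KO neutrophils, 2 were higher and 3 were not called at an adjusted p-value of 0.05. *Naip2*, *Mefv*, *Casp4*, *Naip5* and *Gsdmd* fell, and *Nlrp1b* and *Nlrc4* rose. Among all tested genes, 10.5% were lower and 27.1% were higher by the same rule. The members' median log2 fold change was -0.21, and that of all tested genes was 0.19. The FPKM scale matters for this contrast. With median-of-ratios scaling the all-gene median came to -0.00046, the calls over all genes went from 1408 lower and 3619 higher to 2215 lower and 2156 higher, and the share of higher calls went from 72.0% to 49.3%. The members' calls stayed at 5 lower and 2 higher, with a median of -0.42. Without WT replicate 1, WT replicate 2, KO replicate 1 or KO replicate 3, 3 members were lower instead of 5, since *Naip5* and *Gsdmd* lost their calls. In 8 of the 10 the groups did not overlap (5 lower and 3 higher in KO), where 51.9% of all tested genes did not overlap. By the study's rule, which asks for a change of over 2-fold with p under 0.05 before adjustment, 2 members were lower (*Naip2* and *Mefv*) against 4.43% of all genes, and *Nlrp1b* alone was higher against 6.68%. The rule was applied here to the limma values of log2(FPKM + 0.5), whereas the study used DESeq2. The labels do not say that replicates came from separate cultures or animals, so the p-values measure the spread between these libraries, which may be technical. Fewer cells of a type and less RNA per cell cannot be told apart in these bulk values, and the part of the neutrophil transcripts in the members' changes was not tested.

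**Figure D2:**
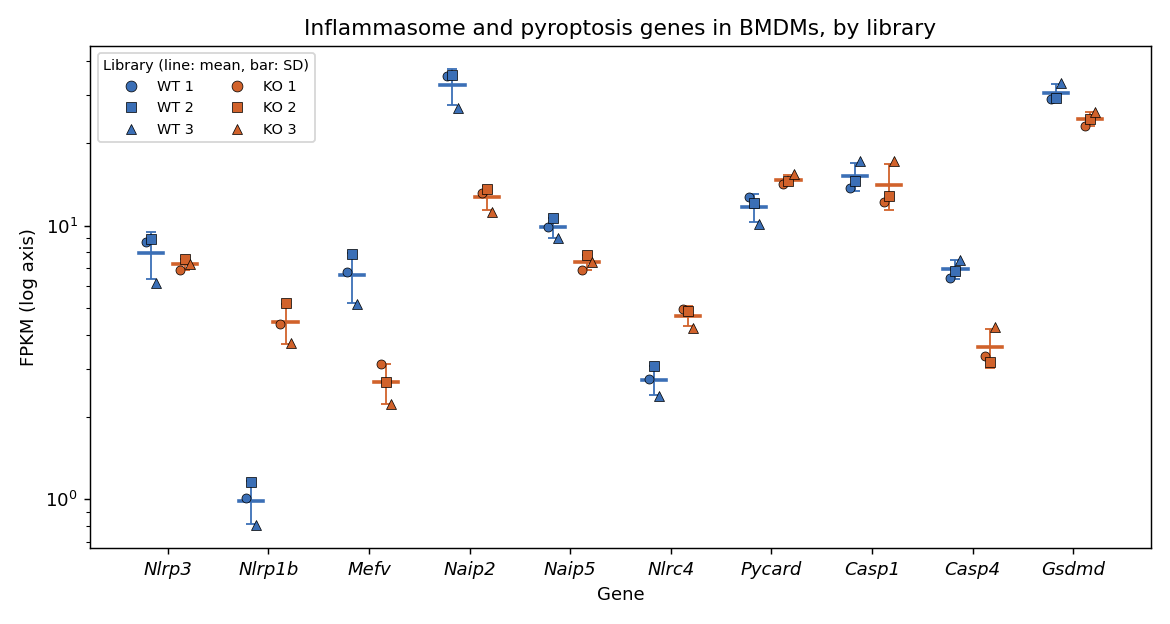
FPKM (log axis) of the 10 members (x axis) in each of the 6 libraries, with WT in blue and KO in orange, 1 marker per library (circle, square and triangle for replicates 1, 2 and 3), the group mean as a horizontal line and its SD as a vertical bar. *Naip2*, *Mefv*, *Casp4*, *Naip5* and *Gsdmd* lie lower in KO without overlap, *Nlrp1b*, *Nlrc4* and *Pycard* lie higher without overlap, and *Nlrp3* and *Casp1* overlap.

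*Nlrp3* encodes the sensor that responds to potassium efflux and to many forms of cell damage (ENSMUSG00000032691, chr11:59541568-59566956, + strand, GENCODE M21 on GRCm38, as for all positions of genes below). Its level was 8.75, 8.91 and 6.16 FPKM in WT replicates 1 to 3 and 6.90, 7.57 and 7.23 FPKM in KO replicates 1 to 3. The KO values lay inside the WT range, with WT replicate 3 the lowest of all. The difference in log2(FPKM + 0.5) was -0.11 (SE 0.15, 95% interval -0.46 to 0.24, adjusted p = 0.599, limma), so a fall or a rise within that interval was not detectable here. The value depended on WT replicate 3. Without that library the difference was -0.27 (limma adjusted p = 0.0362), and with replicates 1 and 2 of each group alone, an alternative chosen after seeing the data, it was also -0.27 (limma adjusted p = 0.0382).

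*Nlrp1b* encodes a sensor that anthrax lethal toxin activates by cleaving it in some mouse strains, but not in all (ENSMUSG00000070390, chr11:71153102-71230733, - strand). It was at 1.01, 1.15 and 0.802 FPKM in WT and at 4.36, 5.22 and 3.73 FPKM in KO. Every KO library was above every WT library, and this was the largest change among the members in either direction. The mean rose 4.49-fold, from 0.988 ± 0.177 to 4.44 ± 0.746 FPKM (SD, n = 3 per group), a log2 difference of 1.73 (SE 0.15, 95% interval 1.36 to 2.09, limma adjusted p = 0.000292). In the alternative analyses the difference lay between 1.45 and 2.06 and kept its call. *Nlrp1a*, the neighbouring paralogue, averaged 0.696 FPKM in WT and 1.30 FPKM in KO, and only 0.0711% of the 100-base stretches of the *Nlrp1b* transcript occur in another gene's transcripts.

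*Mefv* encodes pyrin, which senses the inactivation of RhoA by bacterial toxins (ENSMUSG00000022534, chr16:3707218-3718097, - strand). It moved the other way from *Nlrp1b*. WT libraries held 6.76, 7.86 and 5.15 FPKM and KO libraries 3.13, 2.69 and 2.23 FPKM, without overlap. The mean was 2.46-fold lower, at 6.59 ± 1.36 against 2.68 ± 0.451 FPKM, with a log2 difference of -1.15 (SE 0.18, 95% interval -1.57 to -0.73, limma adjusted p = 0.00288). *Mefv* was the lowest of the 10 members in KO and *Nlrp1b* the lowest in WT.

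The NAIP proteins are receptors for bacterial proteins and pass their signal to NLRC4. NAIP2 binds the inner rod of type III secretion systems and NAIP5 binds flagellin, as NAIP6 does. *Naip2* (ENSMUSG00000078945, chr13:100144063-100202092, - strand) and *Naip5* (ENSMUSG00000071203, chr13:100211739-100246323, - strand) lie 9646 bases apart on the same strand. Both belong to a family of close copies, and their promoters still show it. The stretches from 150 to 25 bases before the RefSeq start (GRCm38.p6) are shown because the neighbours changed by different amounts. These RefSeq starts lie upstream of the GENCODE starts given above, by more for *Naip5* than for *Naip2*. The capitals mark the longest common run of the stretches, of 23 bases. When the stretches were aligned, 79 bases were identical, which is 62.7% of the stretch length of 126 bases.
Naip2, chr13:100202147-100202272, - strand: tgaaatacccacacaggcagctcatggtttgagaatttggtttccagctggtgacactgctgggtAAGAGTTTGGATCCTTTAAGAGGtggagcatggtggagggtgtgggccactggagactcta
Naip5, chr13:100247361-100247486, - strand: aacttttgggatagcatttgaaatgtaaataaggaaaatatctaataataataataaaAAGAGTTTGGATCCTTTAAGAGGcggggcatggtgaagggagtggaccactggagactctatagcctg

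*Naip2* was the most abundant member in WT and fell the most of the 10. It was at 35.3, 35.5 and 26.9 FPKM in WT and at 13.2, 13.7 and 11.3 FPKM in KO. The lowest WT library, replicate 3, was still above the highest KO library. The mean was 2.57-fold lower, at 32.6 ± 4.91 against 12.7 ± 1.26 FPKM, with a log2 difference of -1.32 (SE 0.14, 95% interval -1.65 to -0.99, limma adjusted p = 0.000523).

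*Naip5* was at 9.91, 10.7 and 9.03 FPKM in WT and at 6.90, 7.83 and 7.39 FPKM in KO. The groups did not overlap, but they lay closer together than those of *Naip2*. The mean was 1.34-fold lower, with a log2 difference of -0.40 (SE 0.10, 95% interval -0.63 to -0.16, limma adjusted p = 0.0198). This call was lost without WT replicate 1 (limma adjusted p = 0.0617), WT replicate 2 (0.0633), KO replicate 1 (0.0825) or KO replicate 3 (0.0534), and with values rescaled to TPM (0.0635). *Naip5* shares 16.2% of its 100-base stretches with other genes, mainly *Naip3*, *Naip6* and *Naip1*, and *Naip2* shares 4.55%, mainly with *Naip1*, *Naip3* and *Naip5*. How the authors assigned fragments that match several copies is not given in the sources used here, so the division of the signal among the copies is uncertain.

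*Naip6*, the other flagellin receptor, was at 4.81, 5.92 and 2.84 FPKM in WT and at 4.77, 4.77 and 3.58 FPKM in KO, overlapping ranges with a log2 difference of -0.0037 (limma adjusted p = 0.992). The unequal changes altered the make-up of the family. *Naip1*, *Naip2*, *Naip5* and *Naip6* together summed to 47.3 ± 7.12 FPKM in WT and 24.6 ± 2.05 FPKM in KO. The share of *Naip2* in that sum went from 68.9 ± 1.14% to 51.6 ± 1.16%. *Naip5* made up 21.0 ± 1.80% and then 30.1 ± 2.74%, and *Naip6* 9.38 ± 2.03% and then 17.7 ± 1.59% (SD, n = 3 per group).

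*Nlrc4*, the common partner of all NAIPs, rose while its receptors fell or overlapped (ENSMUSG00000039193, chr17:74425438-74459142, - strand). It was at 2.75, 3.08 and 2.39 FPKM in WT and at 4.98, 4.88 and 4.22 FPKM in KO. All KO values were above all WT values. The mean was 1.71-fold higher, at 4.70 ± 0.413 against 2.74 ± 0.342 FPKM, a log2 difference of 0.68 (SE 0.12, 95% interval 0.40 to 0.97, limma adjusted p = 0.00502). Per unit of the summed NAIP level, *Nlrc4* went from 0.0582 ± 0.00327 in WT to 0.191 ± 0.00758 in KO. The summed NAIP level stayed above that of *Nlrc4* in every library, as FPKM.

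*Pycard* encodes ASC, the adaptor that links NLRP3 and pyrin to caspase-1 (ENSMUSG00000030793, chr7:127989708-127993867, - strand). It was at 12.8, 12.1 and 10.1 FPKM in WT and at 14.2, 14.5 and 15.5 FPKM in KO. The groups did not overlap, yet the difference did not pass the test. The means were 11.7 ± 1.38 and 14.7 ± 0.673 FPKM, a ratio of 1.26, with a log2 difference of 0.33 (SE 0.11, 95% interval 0.07 to 0.58, limma adjusted p = 0.0512). It passed when genes were filtered at a mean of 1 FPKM (limma adjusted p = 0.0496), and it came to 0.12 with median-of-ratios scaling (limma adjusted p = 0.421). The gene *Gm45205* overlaps it on the opposite strand and holds 10.4% of its 100-base stretches. Whether strand was used in the counting is not given in the sources used here, so reads of the overlapping part cannot be told apart.

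*Casp1* and *Casp4* are neighbours on chromosome 9, 1562 bases apart on the same strand, and encode the proteases of the canonical and the non-canonical route. *Casp1* (ENSMUSG00000025888, chr9:5298517-5307265, + strand) was at 13.8, 14.5 and 17.2 FPKM in WT and at 12.2, 12.9 and 17.3 FPKM in KO. The ranges overlapped, and replicate 3 was the highest library of each group. The log2 difference was -0.11 (SE 0.15, 95% interval -0.47 to 0.26, limma adjusted p = 0.613), and no alternative analysis called it.

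*Casp4* (ENSMUSG00000033538, chr9:5308828-5336783, + strand) was at 6.45, 6.86 and 7.52 FPKM in WT and at 3.35, 3.19 and 4.28 FPKM in KO. The groups did not overlap. The mean was 1.93-fold lower, at 6.94 ± 0.537 against 3.61 ± 0.589 FPKM, with a log2 difference of -0.87 (SE 0.13, 95% interval -1.17 to -0.56, limma adjusted p = 0.00244). Within a library, *Casp4* amounted to 0.459 ± 0.0191 of *Casp1* in WT and to 0.257 ± 0.0155 in KO.

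The promoters of the neighbouring caspase genes are shown because one gene fell while the other overlapped. Both stretches run from 150 to 25 bases before the start in RefSeq (GRCm38.p6), and the capitals mark matches to the NF-kB consensus on either strand.
Casp1, chr9:5298367-5298492, + strand: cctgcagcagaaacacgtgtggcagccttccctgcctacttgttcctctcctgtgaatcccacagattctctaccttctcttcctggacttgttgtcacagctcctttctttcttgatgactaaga
Casp4, chr9:5308699-5308824, + strand: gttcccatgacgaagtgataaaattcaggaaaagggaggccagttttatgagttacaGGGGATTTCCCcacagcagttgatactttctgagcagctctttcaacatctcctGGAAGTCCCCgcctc

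RefSeq promoters (250 bases before to 50 after a start) were found for 9 members, *Gsdmd* being the exception, in 12 windows. The NF-kB consensus matched in *Casp4* at -93 and -92, which overlap, and at -39, counted from the first of its RefSeq starts. It also matched in *Naip5* at -218 and in 1 window of *Nlrp3* at -186. Among all 32851 promoters of that length, 8.46% held such a match. The core of the interferon-stimulated response element, a pair of GAAA with 2 bases of any kind between them, and of the gamma-activated site, TTCNNNGAA, searched on both strands, were in none of the 12 windows, against 3.44% and 8.30% of all promoters. A match is a description of these letters and shows no binding, and their absence from the window says nothing of sites elsewhere.

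*Gsdmd* encodes gasdermin D, the pore former on which both routes converge (ENSMUSG00000022575, chr15:75862327-75867408, + strand). It was at 29.1, 29.3 and 33.2 FPKM in WT and at 23.1, 24.5 and 26.1 FPKM in KO. The groups did not overlap, and *Gsdmd* was the most abundant member in KO. The mean was 1.24-fold lower, at 30.5 ± 2.31 against 24.6 ± 1.47 FPKM, with a log2 difference of -0.31 (SE 0.09, 95% interval -0.52 to -0.09, limma adjusted p = 0.0372). The call was lost without WT replicate 1 (limma adjusted p = 0.0676), WT replicate 2 (0.0652), KO replicate 1 (0.139), KO replicate 2 (0.112) or KO replicate 3 (0.0516), and without a filter on low values (0.0533), while median-of-ratios scaling gave -0.52 (0.00787).

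**Figure D3:**
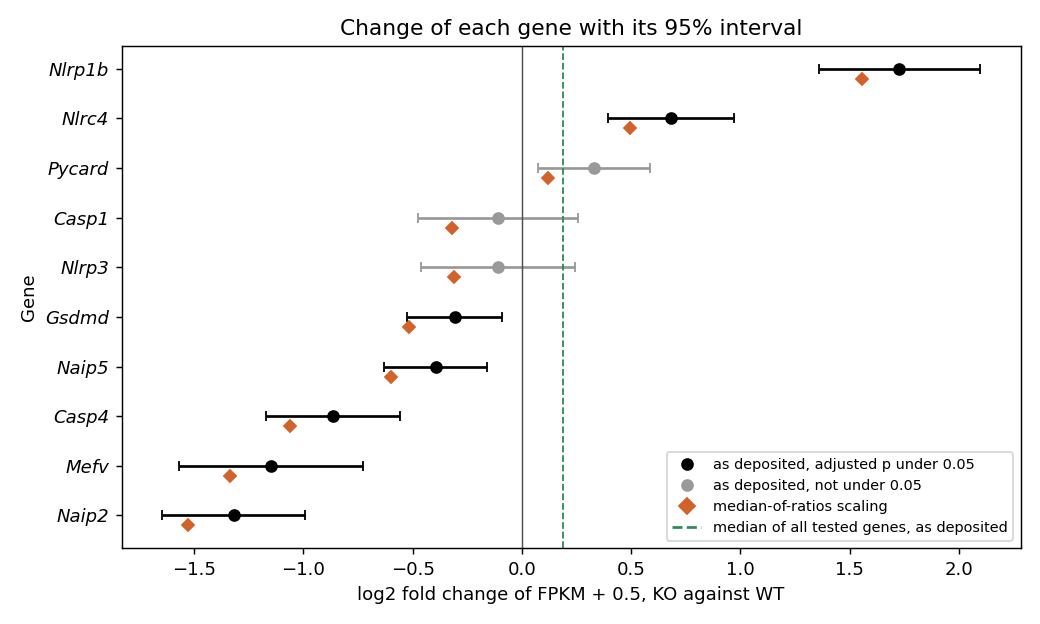
Difference in log2(FPKM + 0.5) between KO and WT for each member (circles, black at an adjusted p under 0.05 and grey otherwise) with its 95% interval (lines), from limma, beside the value with median-of-ratios scaling (orange diamonds) and the median of all tested genes (dashed line). *Nlrp1b* at 1.73 and *Naip2* at -1.32 are the ends of the range, and the intervals of *Nlrp3* and *Casp1* include 0.

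The order of the members' levels, which FPKM gives per length, differed between the groups. In WT, *Naip2* and *Gsdmd* had overlapping ranges at the top, followed by *Casp1*, by *Pycard* and *Naip5* with overlapping ranges, by *Nlrp3*, *Casp4* and *Mefv*, of which each overlapped the next, and by *Nlrc4* and *Nlrp1b*. In KO, *Gsdmd* stood alone at the top. *Pycard*, *Casp1* and *Naip2* followed, each overlapping the next, then *Naip5* and *Nlrp3*, then *Nlrc4*, *Nlrp1b* and *Casp4*, again each overlapping the next, and *Mefv*. *Naip2* thus went from the first place to the fourth and *Nlrp1b* from the tenth to the eighth.

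Ratios of a pair of members within a library do not depend on the scaling between libraries. They are not free of the trend with transcript length described above where the members of a pair differ in length. In each of the 6 pairs examined the groups did not overlap. With 3 libraries against 3 the exact permutation test (two-sided) gave p = 0.1 for every pair, the smallest it can give, and 0.1 after adjustment, so no ratio could pass. *Nlrp1b* over *Casp1* had the largest difference, from a mean log2 ratio of -3.95 ± 0.41 in WT to -1.67 ± 0.48 in KO. That difference of 2.28 came to 2.05 without WT replicate 3 and to 2.55 without KO replicate 3. Relative to the shared adaptor, *Mefv* over *Pycard* differed by -1.63 and *Nlrp3* over *Pycard* by -0.46 on the log2 scale. *Nlrc4* over *Naip5* was higher by 1.20 in KO. *Casp4* over *Casp1* was lower by a log2 difference of -0.84 and *Gsdmd* over *Casp1* by -0.20, which came to -0.0892 without KO replicate 3.

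**Figure D4:**
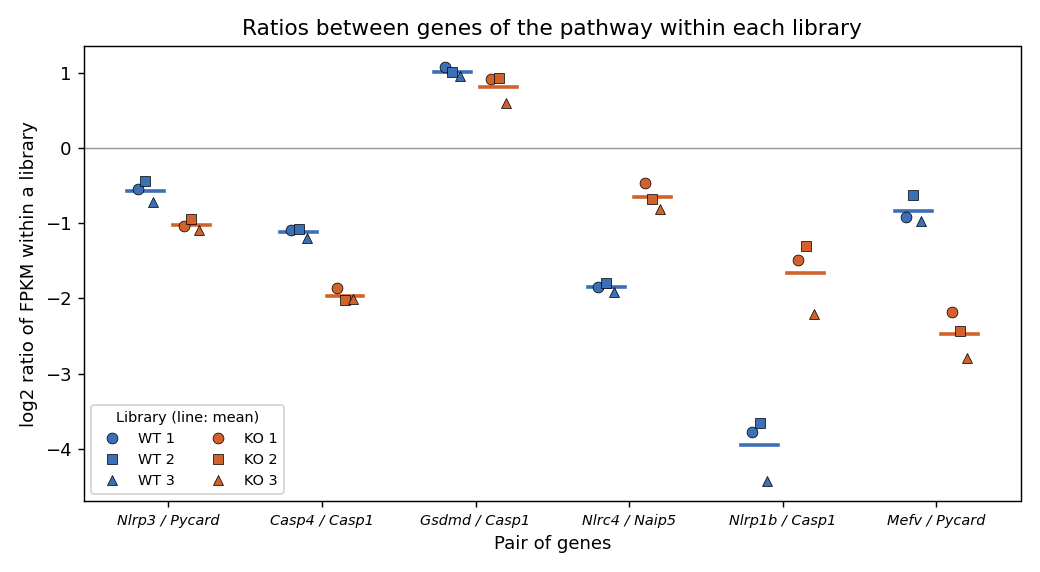
Log2 ratio of FPKM between 2 members within each library for the 6 pairs, with WT in blue and KO in orange, 1 marker per library (circle, square and triangle for replicates 1, 2 and 3) and the group mean as a line. The groups are apart in every pair, most for *Nlrp1b* over *Casp1* and least for *Gsdmd* over *Casp1*.

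The cytokines that caspase-1 matures moved in opposite directions. Of the 5 tested of 6 listed substrates and antagonists, 4 were lower and 1 was higher, with a median log2 difference of -2.11. *Il1b* was at 7.92, 7.91 and 10.4 FPKM in WT and at 0.519, 0.644 and 0.534 FPKM in KO, a log2 difference of -3.11 (limma adjusted p = 1.27e-05). *Il18* was at 2.09, 2.27 and 3.41 FPKM in WT and at 6.07, 6.40 and 6.62 FPKM in KO, a log2 difference of 1.17 (limma adjusted p = 0.00197). The ratio of *Il1b* to *Il18* within a library was 3.44 ± 0.371 in WT and 0.0890 ± 0.0104 in KO. Their natural antagonists fell as well, with log2 differences of -2.11 for the receptor antagonist gene *Il1rn* and -2.37 for the binding protein gene *Il18bp* (limma adjusted p = 7.77e-05 and 9.91e-05), as did *Il1a*, from 3.70 ± 0.344 to 0.545 ± 0.226 FPKM.

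Of the 73 other genes of the pathway, 61 were tested, of which 16 were lower, 15 were higher and 30 were not called, with a median log2 difference of 0.035. Among all tested genes 10.5% were lower and 27.1% were higher, so the higher share of the pathway was near the background. The higher calls were the ones that depended on scaling and libraries, at 7 with median-of-ratios scaling, 8 without KO replicate 1 and 9 without KO replicate 2. Of the 23 regulators of assembly, 7 were lower and 6 were higher (9 and 3 with median-of-ratios scaling), with a median of 0.02. The guanylate-binding proteins, which open bacterial membranes and expose lipopolysaccharide to caspase-11, were among the lower genes. *Gbp2* went from 159 ± 6.61 to 5.48 ± 1.10 FPKM and *Gbp3* from 42.4 ± 4.10 to 1.40 ± 0.304 FPKM, and *Gbp5* fell by 3.39 on the log2 scale (limma adjusted p = 2.73e-06). *Irgb10*, a GTPase that acts with them, went from 37.8 ± 2.34 to 2.39 ± 0.388 FPKM. The 6 genes that rose were *P2rx7*, the ATP receptor upstream of NLRP3 (2.68-fold higher), *Txnip*, a thioredoxin-binding protein (63.6 ± 12.2 to 131 ± 8.82 FPKM), *Serpinb1a*, *Pstpip1*, *Dpp8* and *Kcnk6*, of which *Serpinb1a* lost its call without KO replicate 1. *Pstpip1*, *Dpp8* and *Kcnk6* lost theirs with median-of-ratios scaling, *Dpp8* also without WT replicate 1, WT replicate 3, KO replicate 1 or KO replicate 2, and *Kcnk6* without WT replicate 2 or any single KO library.

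Among transcription factors of these genes, *Irf1*, which acts on the *Gbp* genes, was lower, going from 47.6 ± 4.13 to 11.6 ± 0.434 FPKM (limma adjusted p = 1.44e-05). *Irf2*, *Irf8*, *Rela*, *Nfkb1* and *Spi1* did not pass. Of the 9 tested of 13 other sensors, *Nlrc5*, a transactivator of MHC class I genes, was lower (15.0 ± 3.99 to 2.24 ± 0.476 FPKM). *Nlrp10*, *Nlrc3*, *Nlrx1* and *Nlrp1a* were higher, by log2 differences of 0.76, 0.76, 0.65 and 0.61, with a list median of 0.19. *Nlrp10* averaged 0.344 FPKM in WT and 0.927 FPKM in KO, so it passed the filter of 0.5 FPKM only through the KO libraries. *Nlrc3* averaged 0.561 FPKM in WT and 1.30 FPKM in KO. With the filter at a mean of 1 FPKM, *Nlrp10*, *Nlrc3* and *Nlrp1a* were not tested. Of the 6 sensors left, 1 was lower and 1 was higher, with a median of -0.035. The call of *Nlrx1* was lost without KO replicate 1 or KO replicate 2, and that of *Nlrp1a* without WT replicate 2 or any single KO library and with median-of-ratios scaling.

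In the list of other caspases, 8 genes with the death receptor adaptor *Fadd* among them, 2 were higher and none was lower, a share near the 27.1% of all tested genes that were higher, with a median of 0.42. They were *Casp6* (2.50 ± 0.451 to 4.11 ± 0.412 FPKM) and *Casp8*, the initiator of extrinsic apoptosis (20.9 ± 0.998 to 26.5 ± 2.37 FPKM), and neither passed with median-of-ratios scaling. The call of *Casp8* was also lost without WT replicate 1, WT replicate 2, KO replicate 1 or KO replicate 3. *Casp2* and *Casp9* had the next smallest p-values and did not pass, although *Casp2* did with the replicate block (limma adjusted p = 0.0297) and *Casp9* without KO replicate 1 (limma adjusted p = 0.0449). Of the 9 tested of 16 genes of other gasdermins, membrane rupture and repair, 2 were lower and 2 were higher, with a median of 0.02. *Ninj1*, whose product tears the plasma membrane after gasdermin pores form, was at 221, 169 and 217 FPKM in WT and at 116, 118 and 147 FPKM in KO, a log2 difference of -0.66 (limma adjusted p = 0.0115). *Chmp4b*, of the ESCRT complex that repairs membranes, went from 144 ± 16.3 to 110 ± 10.1 FPKM, and its call was lost without WT replicate 1, KO replicate 1 or KO replicate 2. *Gsdme* and *Chmp1a* were higher (0.704 ± 0.129 to 1.19 ± 0.0559 and 39.1 ± 0.522 to 45.8 ± 1.62 FPKM), and neither passed with median-of-ratios scaling or when any library other than WT replicate 3 was left out.

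**Figure D5:**
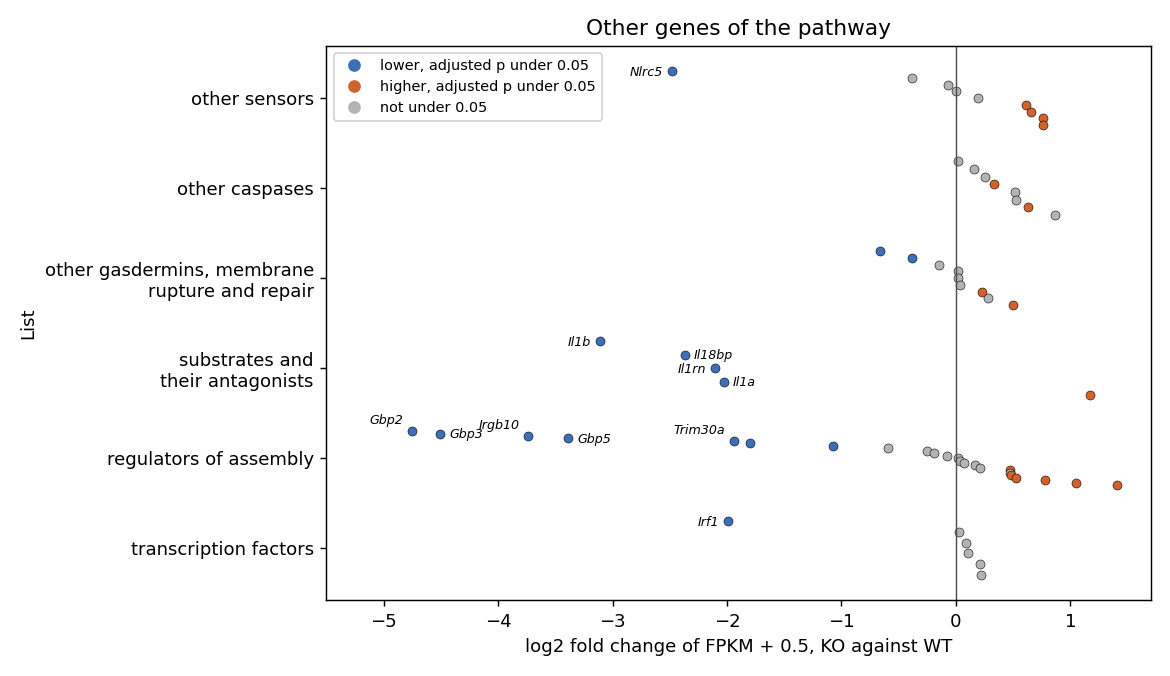
Difference in log2(FPKM + 0.5) between KO and WT for the tested other genes of the pathway, 1 point per gene, by list and without 1 gene that is not reported here, with blue for lower and orange for higher at an adjusted p under 0.05 (limma) and grey for the rest. The guanylate-binding proteins and *Il1b* lie at -3 or below, and no gene lies above 1.5.

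The genes whose levels ran most like those of *Nlrp3* over the 6 libraries, among 11746 genes of at least 1 FPKM on average, were *Cdr2l* (Pearson's r = 0.989), *Orai2* (0.988) and *Zswim4* (0.988). All of them had WT replicate 3 as their lowest library, as *Nlrp3* did. For *Casp1* they were *Txn2* (0.994), *Suds3* (0.992) and *Maged2* (0.989), which all had replicate 3 as the highest library of each group. For *Gsdmd* they were *Kdelr2* (0.996), *Gmppb* (0.995) and *Hnrnpdl* (0.995). These values describe 6 points that share libraries, depth and the trend with transcript length.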

How the data were processed

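FPKM values, scaled to gene length and library total, are what the authors deposited for the sorted BMDMs. Submitters' processing notes name fastp 0.17.1, HISAT2 2.1.0, DESeq2 1.18.1 and R 3.4.3, and the genome build and quantifier are not given in the sources used here. The labels and the study's methods name different RNA reagents, library kits and sequencers. Symbols and positions came from GENCODE M21 (GRCm38), which matched 55154 of 55335 identifiers (99.7%). Depth was inferred from the steps of low values. Of these, 40.2% to 43.6% were whole multiples within 0.1, and chance gives 20%, so whole reads could not be had and a count test was not used. The test was limma 3.58.1 (R 4.3.3) on log2(FPKM + 0.5) for genes averaging 0.5 FPKM or more (eBayes with trend, two-sided, no covariates, Benjamini-Hochberg over 13367 genes), a scale that understates changes of low genes. The code was tested on simulated data. The members, lists and tests were chosen with earlier results of these data known. Named genes were the members, in each list up to 4 with the smallest adjusted p and those against the list's majority, fixed marker genes, and the 3 genes most correlated with each of *Nlrp3*, *Casp1* and *Gsdmd*. Alternatives covered pseudocounts, filters, scaling, variance estimation, the replicate block, left-out libraries and the study's threshold. Single values of some listed genes are not reported here.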

Additional observations from a re-analysis of the deposited data

How the results depend on the processing

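Replicate numbers were not treated as pairs, because the correlations of same-numbered libraries' deviations were 0.116, 0.036 and 0.264 and the labels give them no common origin. WT replicate 1 correlated best with KO replicate 2 (0.16), while the highest of all the correlations was that of WT replicate 3 with KO replicate 3. Over all genes the replicate block gave 1681 lower and 4253 higher calls, against 1408 and 3619 without it. With the replicate block, 5 members were lower and 2 were higher as without it, and 16 pathway genes were lower and 19 were higher. By the study's threshold, applied to the limma values of log2(FPKM + 0.5), 2 members were lower and 1 was higher, and 3 pathway genes were higher. *Nlrp10*, *Nlrc3* and *Serpinb1a* had FPKM means 2.69-fold, 2.31-fold and 2.23-fold higher in KO but did not reach 2-fold on that scale. With single libraries left out, 3 to 6 members were lower, 2 were higher, and 8 to 17 pathway genes were higher. With median-of-ratios scaling, 7 pathway genes were higher and the median log2 difference of the members was -0.42 instead of -0.21, and over all genes 2215 were lower and 2156 were higher instead of 1408 and 3619. The causes were not tested. Pathway genes that were lower numbered 14 to 18 in all alternatives. With replicates 1 and 2 alone, an alternative added after seeing the data, 6 members were lower and 2 were higher. None of the reported differences of members changed sign in the alternatives run. *Nlrp1b*, *Nlrc4*, *Naip2*, *Mefv* and *Casp4* kept an adjusted p under 0.05 in each alternative fit, while *Nlrc4* and *Casp4* did not reach the fold change of the study's threshold.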

Other observations

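*Nek7*, which binds NLRP3 during its assembly, is named here after its values were seen. It was between 9.42 and 10.7 FPKM in the WT libraries and at 4.48, 16.4 and 3.55 FPKM in KO. KO replicate 2 was above every WT library while the other KO libraries were below them all, and the difference passed only without KO replicate 2 (limma adjusted p = 0.00258, against 0.390 with it). *Chmp3*, an ESCRT gene also named after its values were seen, ranged from 13.5 to 33.1 FPKM in WT and from 9.27 to 30.1 FPKM in KO.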
